A study of Mus musculus with 6 samples.

Results

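AP-1 is a family of paired transcription factors, and 10 of its genes are described here across the leukocytes of the mouse brain: Fos, Fosb, Fosl2, Jun, Junb, Jund, Atf3, Maff, Jdp2 and Batf. They were chosen by symbol among the 31053 genes of the count tables, and each symbol was found once. The data are 6 single-cell RNA libraries of living CD45+ cells sorted from perfused brains of C57BL/6 mice, with 1 library for each of 2 genotypes at 3 times and 3 brains pooled in each library. Lyz2-cre mice carried floxed Cd300a alleles and Cre recombinase driven from Lyz2, the lysozyme M gene of myeloid cells. The fl/fl mice carried the same floxed alleles without Cre, so no group had unmodified Cd300a alleles. Mice of the 1 h and 3 h groups had a filament in the right internal carotid artery for 60 min and were taken 1 h or 3 h after its withdrawal, and the naive groups are those that the sample titles call naive. None of the libraries is labelled as sham-operated, so surgery and occlusion cannot be told apart in the comparisons with naive mice. No source used here gives the age of the mice.

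AP-1 proteins are basic leucine zipper factors that bind DNA only as pairs. Fos-type proteins must pair with a Jun-type protein, Jun-type proteins can also pair with each other, and the ATF-like and small Maf members pair with either or with other zipper proteins and often lack a domain that activates transcription. Fos, Fosb, Jun and Junb are immediate early genes: signals and mechanical handling raise their transcripts within minutes, and in microglia, the resident macrophages of the brain, cell isolation itself is known to do so.

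Of the 10 genes, 3 are consecutive coding genes on mouse chromosome 12, where Fos, Jdp2 and Batf lie head to tail on the plus strand within chr12:85473890-85709087 (GRCm38), a span of 235.2 kb that holds 3 coding genes. The promoters of these and of 3 other members are shown because members that stood on opposite sides in the comparisons below, such as Fos and Jdp2, share letters there. A search of both strands of 14 RefSeq windows of the 10 genes (250 bases before to 50 after each start, GRCm38.p6) found the letters TGACGT, the opening of the cAMP response element TGACGTCA, for 5 of 10 genes and in 5 of 14 windows, against 7.51% of all 32851 windows. These letters were added to the search after the sequences had been seen. The printed sequences run 5′ to 3′ and end at the base before the start where they are 250 bases long; capitals mark TGACGT, its reverse complement ACGTCA, TGACGTCA or its variant TGACATCA. Fos, 250 bases at chr12:85473640-85473889, plus strand, with the match at position -66 from the start; Jun at chr4:95052223-95052472, minus strand, with TGACATCA at -45; and Maff at chr15:79347270-79347519, plus strand, the second of its 3 windows, with TGACGTCA at -29, read:
Fos: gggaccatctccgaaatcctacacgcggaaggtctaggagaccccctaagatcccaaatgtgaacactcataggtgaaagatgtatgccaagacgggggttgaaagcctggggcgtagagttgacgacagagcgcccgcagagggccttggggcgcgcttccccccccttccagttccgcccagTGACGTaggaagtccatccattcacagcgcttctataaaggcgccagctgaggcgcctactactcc
Jun: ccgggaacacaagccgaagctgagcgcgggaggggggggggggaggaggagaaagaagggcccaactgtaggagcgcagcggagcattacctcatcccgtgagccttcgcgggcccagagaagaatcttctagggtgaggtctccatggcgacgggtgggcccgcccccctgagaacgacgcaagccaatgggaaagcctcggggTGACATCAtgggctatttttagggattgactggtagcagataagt
Maff: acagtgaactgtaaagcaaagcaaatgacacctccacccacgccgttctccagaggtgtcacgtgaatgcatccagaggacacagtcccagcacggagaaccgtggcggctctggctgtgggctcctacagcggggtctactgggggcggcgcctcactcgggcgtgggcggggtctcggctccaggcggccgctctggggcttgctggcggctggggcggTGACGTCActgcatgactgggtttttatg
The windows that hold the matches of Atf3, Jdp2 and Batf overlap, in their 250 bases before the start, annotated exons of the gene itself. The 30 Batf bases printed here end before the annotated Batf gene, which begins at 85686669. For Atf3 (chr1:191183334-191183363, minus strand), Jdp2 (chr12:85599290-85599319, plus strand) and Batf (chr12:85686610-85686639, plus strand) the 30 bases around the match are given:
Atf3: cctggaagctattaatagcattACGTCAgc
Jdp2: tccgtccccctcTGACGTgtggagctggca
Batf: tttctaacttgtTGACGTttccgcccatgt
The AP-1 consensus TGACTCA was in none of the members' windows and in 5.202% of all windows. TGACGTCA was in 1 of 14 windows, of Maff, against 1.79% of all windows. Its form TGACNTCA, which includes TGACGTCA, was in 3 of 14 windows, of Jun and Maff, against 8.83%. The amino acid response form TGATGCAA was in 2 of 14 windows, those of Atf3 and Jdp2, against 0.895% of all windows. Heat shock letters GAANNTTC were in 2 of 14 windows, those of Fosl2 and Jun, against 7.86%. The NF-kB motif was in 3 of 14, those of Fos, Fosb and Fosl2, against 5.81%. The CArG box bound by serum response factor was in 0 of 14, against 1.63%. Bases more than 250 before a start were not searched, so a motif further upstream would be missed. A match describes letters only.

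The libraries held 51005 barcodes and between 35479437 and 48478866 UMIs (unique molecular identifiers, 1 per counted transcript) each, and 47077 cells were used, with a median of 3902 to 5225 UMIs per cell in each library. Clusters made without the 10 members were named from marker genes: 37417 cells were microglia-like, 3876 neutrophil-like and 2345 monocyte-like, 326 stayed unnamed, and T cell-like, B cell-like, natural killer cell-like, dendritic cell-like and border-associated macrophage-like cells made up the rest. The 10 microglia markers summed to 19690 to 39020 CPM in microglia-like cells and the neutrophil markers there to 242 to 535 CPM. Pairs of libraries shared 12 to 30 barcodes, at most 0.412% of the smaller library. Cd300a in neutrophil-like cells was at 9.68 to 16.2 CPM in the Lyz2-cre libraries and at 126 to 236 CPM in the fl/fl libraries, and Lyz2 at 17.6 to 84.7 CPM against 2614 to 13030 CPM, the direction the labels give; CPM is the usual scaling of counts to a common total, made from a gene's UMIs and the UMI total of its class and library. In microglia-like cells Cd300a was at 136 to 170 CPM in the Lyz2-cre and 171 to 211 CPM in the fl/fl libraries. A UMI comes from the polyadenylated end of a transcript and does not show whether the floxed part was deleted.

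In microglia-like cells the AP-1 transcripts of naive brain were abundant, and most of that abundance was gone 1 h after reperfusion. The 10 genes together made up 2.23%, 0.823% and 1.09% of all microglia-like UMIs in the Lyz2-cre naive, 1 h and 3 h libraries and 2.63%, 0.876% and 1.10% in the fl/fl libraries at the same times. The members did not move together. All 3 Jun genes with Fos and Fosb were lower at both times than in naive brain, Jdp2, Fosl2 and Batf were higher at both, Maff was higher at 3 h, and Atf3 was lower at 1 h and higher at 3 h. Of 10 members, 9 passed the test at 1 h against naive, 3 higher and 6 lower, where 25% of 12920 genes tested passed (13.3% higher, 11.7% lower). At 3 h against naive 10 of 10 passed, 5 higher and 5 lower, against 45.3% of all genes (23.5% higher, 21.8% lower). The members' median log2 fold change was -1.18 at 1 h and -0.08 at 3 h, beside -0.02 at both times over all genes. Tests are edgeR's quasi-likelihood test on UMIs summed per library and class, with Benjamini-Hochberg adjusted p over all genes tested and n = 2 libraries per time, 1 of each genotype. No genotype and time has a second pool, so the p-values rest on how alike the changes over time are in both genotypes. A constant difference between genotypes is fitted and does not add to that spread. For each gene the spread is drawn toward that of all genes. At both later times the cells of the class came from other clusters than in naive brain: cluster 1 held 81.0%, 1.304% and 0.164% of the Lyz2-cre cells of the class at naive, 1 h and 3 h and 80.0%, 0.551% and 0.0420% of the fl/fl cells. At 1 h clusters 2, 5 and 17 held most of them.

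**Figure D1:**
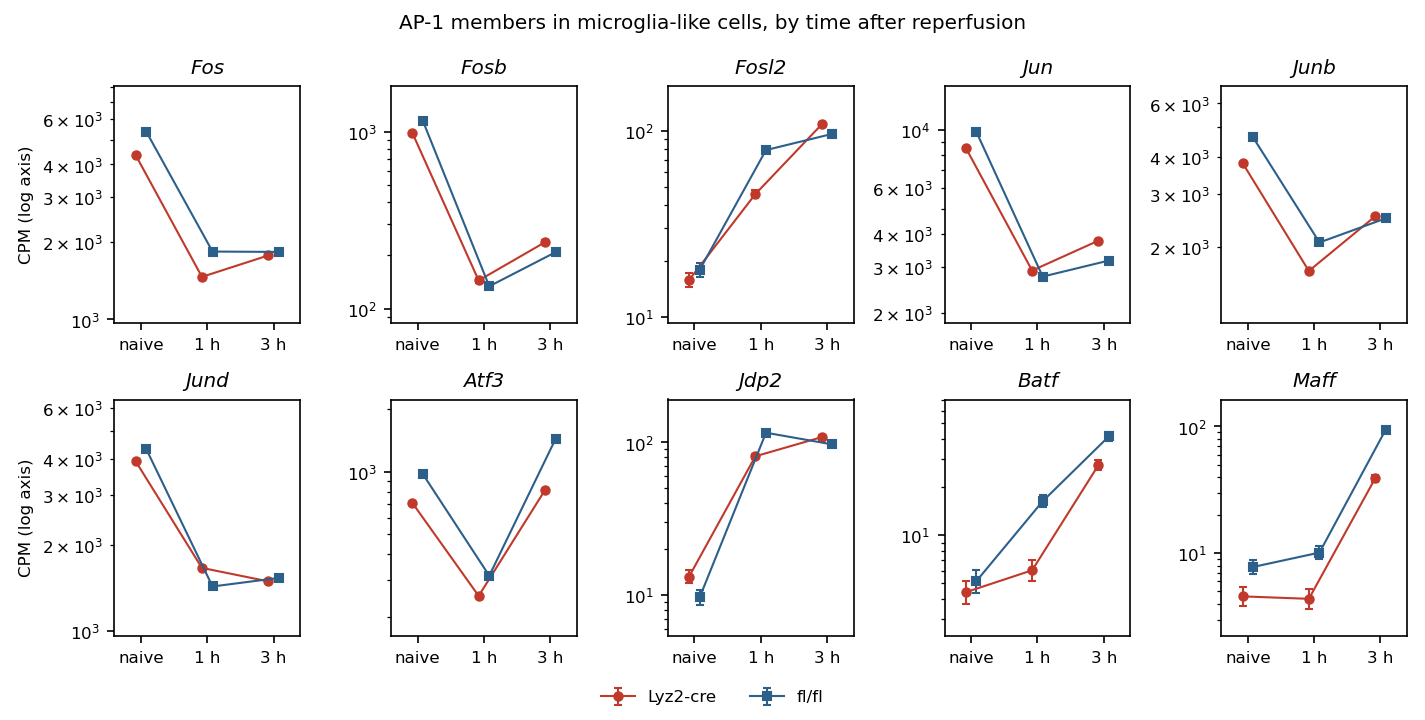
Level of each AP-1 member in microglia-like cells (CPM on a log axis) by time (naive, then 1 h and 3 h of reperfusion), with 1 point per library for Lyz2-cre and fl/fl mice; bars are exact Poisson 95% intervals of the count. Fosb fell to 144 and 134 CPM at 1 h, against 982 and 1145 CPM in naive brain, while Jdp2 stood at 81.2 and 116 CPM at 1 h, against 13.2 and 9.65 CPM.

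Fosb (chr7:19302696-19310051, minus strand) encodes a Fos-type partner of Jun and had the largest fall of the 10 genes. It was at 982, 144 and 237 CPM in the Lyz2-cre naive, 1 h and 3 h libraries and at 1145, 134 and 208 CPM in the fl/fl libraries. Both naive libraries lay far above the other 4, and at each time the genotypes lay close together. The fall at 1 h was -2.83 ± 0.11 (log2, SE), or 7.10-fold, with adjusted p = 3.09e-06, and that at 3 h was -2.17 ± 0.11 (adjusted p = 4.02e-06). At 3 h it was higher than at 1 h by 0.66 ± 0.11 (adjusted p = 0.00151). In UMIs per cell this was 5.30, 0.599 and 0.950 in Lyz2-cre and 5.83, 0.592 and 0.914 in fl/fl mice.

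Fos (chr12:85473890-85477273, plus strand), the founding Fos-type partner, was at 4354, 1464 and 1773 CPM in the Lyz2-cre naive, 1 h and 3 h libraries and at 5371, 1836 and 1830 CPM in the fl/fl libraries. Naive libraries were above all others without overlap. Fos fell by 1.45 ± 0.10 at 1 h and 1.33 ± 0.10 at 3 h on the log2 scale (adjusted p = 5.78e-05 and 2.85e-05). Between 3 h and 1 h its difference of 0.12 ± 0.10 did not pass the test (adjusted p = 0.356).

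Fosl2 (chr5:32135801-32157842, plus strand), which encodes the Fos-type protein Fra-2, went the other way. It was at 15.9, 45.9 and 108 CPM in the Lyz2-cre and at 18.0, 79.0 and 96.4 CPM in the fl/fl libraries at naive, 1 h and 3 h. Every later library lay above both naive libraries. Fosl2 rose by 1.96 ± 0.24 at 1 h (adjusted p = 0.00937) and by 2.70 ± 0.24 at 3 h (adjusted p = 0.001835). At 1 h the call was lost without either naive library and with no filter on low counts.

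Jun (chr4:95049034-95052222, minus strand) encodes c-Jun, the main target of Jun N-terminal kinases. Its level was 8529, 2897 and 3771 CPM in the Lyz2-cre naive, 1 h and 3 h libraries and 9812, 2748 and 3166 CPM in the fl/fl libraries. Here too the naive libraries stood apart. In fold terms Jun was 3.01-fold lower at 1 h (-1.59 ± 0.12, adjusted p = 8.40e-05) and 2.49-fold lower at 3 h (-1.32 ± 0.12, adjusted p = 8.23e-05).

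Junb (chr8:84974484-84978718, minus strand), whose product pairs with Fos proteins and activates less strongly than c-Jun, was at 3808, 1668 and 2532 CPM in the Lyz2-cre and at 4627, 2074 and 2494 CPM in the fl/fl libraries at naive, 1 h and 3 h. All naive values were above all later ones. It fell by 1.06 ± 0.10 at 1 h (adjusted p = 0.000289) and by 0.65 ± 0.10 at 3 h (adjusted p = 0.00120), and at 3 h it was 0.41 ± 0.10 higher than at 1 h (adjusted p = 0.00971). The 3 h call against naive was lost without the fl/fl naive library, and the call between 3 h and 1 h without the fl/fl naive, Lyz2-cre 1 h or Lyz2-cre 3 h library.

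Jund (chr8:70698949-70700616, plus strand), the Jun gene that is expressed in most resting cells, was at 3923, 1663 and 1492 CPM in the Lyz2-cre naive, 1 h and 3 h libraries and at 4326, 1432 and 1534 CPM in the fl/fl libraries. Levels at 1 h and 3 h overlapped, below both naive libraries. Jund fell by 1.303 ± 0.12 at 1 h (adjusted p = 0.000204) and by 1.36 ± 0.12 at 3 h (adjusted p = 6.40e-05), and 3 h and 1 h differed by -0.05 ± 0.11 (adjusted p = 0.725). Annotated genes overlap Jun (Junos), Junb (Prdx2), Jund (Gm11175), Jdp2 (Gm47863) and Atf3 (Gm24748) on the opposite strand, and the strand setting of the counting was stated in no source used here.

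Jdp2 (chr12:85599027-85639878, plus strand) encodes Jun dimerization protein 2, which occupies AP-1 sites and represses them. It was at 13.2, 81.2 and 108 CPM in the Lyz2-cre naive, 1 h and 3 h libraries and at 9.65, 116 and 97.1 CPM in the fl/fl libraries. Both naive libraries were low and the 4 later ones high, with 1 h and 3 h overlapping. The rise was 9.26-fold at 1 h (3.21 ± 0.25, adjusted p = 0.00346) and 9.55-fold at 3 h (3.26 ± 0.25, adjusted p = 0.00126), and 3 h and 1 h differed by 0.04 ± 0.22 (adjusted p = 0.889). Thus Jdp2 was near its 3 h level 1 h after reperfusion, at the time when Fosb was lowest.

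Atf3 (chr1:191170296-191218039, minus strand), an early stress-response gene whose product often represses, had a course of its own. It was at 707, 252 and 814 CPM in the Lyz2-cre naive, 1 h and 3 h libraries and at 971, 315 and 1436 CPM in the fl/fl libraries. The 1 h libraries lay below all others, while the Lyz2-cre 3 h library lay between the 2 naive ones. Atf3 fell by 1.44 ± 0.14 at 1 h (adjusted p = 0.000823) and at 3 h stood 1.92 ± 0.14 above 1 h, a 3.79-fold rise (adjusted p = 0.000146). The 1 h call was lost in a model without genotype. Its rise of 0.48 ± 0.14 at 3 h over naive (adjusted p = 0.0249) was lost without either naive library, without the fl/fl 3 h library and in a model without genotype. So Atf3 did not share the early rise of Jdp2: the difference from naive had opposite signs for these genes at 1 h in both genotypes.

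Maff (chr15:79346621-79359076, plus strand) encodes a small Maf protein, which pairs with the oxidative stress factor NRF2 or with BACH1. Its level was 4.57, 4.37 and 38.9 CPM in the Lyz2-cre naive, 1 h and 3 h libraries and 7.79, 10.1 and 94.6 CPM in the fl/fl libraries. Only the 3 h libraries were high, and at each time the fl/fl library was above the Lyz2-cre one. Maff did not pass the test at 1 h (0.29 ± 0.15, adjusted p = 0.190) and rose 11.0-fold at 3 h (3.46 ± 0.14, adjusted p = 1.205e-06).

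Batf (chr12:85686669-85709087, plus strand), whose product pairs with Jun proteins and binds beside interferon regulatory factors, was at 4.41, 6.04 and 27.4 CPM in the Lyz2-cre naive, 1 h and 3 h libraries and at 5.17, 16.3 and 41.5 CPM in the fl/fl libraries. Its 3 h libraries were the highest, and the Lyz2-cre 1 h library lay close to the naive ones. Batf rose by 2.91 ± 0.28 at 3 h (adjusted p = 0.00145), and by 1.23 ± 0.29 at 1 h (adjusted p = 0.0391). The 1 h call was lost in 7 settings: without either naive library, without the fl/fl 1 h library, with library totals alone, with no filter on low counts, in a model without genotype and with no doublet removal.

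Between 3 h and 1 h, 5 of 10 members passed in microglia-like cells, all higher at 3 h, where 45.4% of all genes passed (24.1% higher): Fosb, Junb, Atf3, Maff at 3.17 ± 0.13 and Batf at 1.69 ± 0.25. Fosl2 was 0.74 ± 0.22 and Jun 0.27 ± 0.12 higher, which did not pass (adjusted p = 0.0562 and 0.0866). In other settings Fosl2 passed, DESeq2 and a stricter cell filter among them, and Jun passed with library totals alone.

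Counted over cells, each thinned to 2000 UMIs, Fosb was seen in fewer and Jdp2 in more microglia-like cells at 1 h and 3 h than in naive brain. Fosb was seen in 53.6%, 19.4% and 17.9% of microglia-like cells in the Lyz2-cre naive, 1 h and 3 h libraries and in 54.2%, 16.8% and 17.7% in the fl/fl libraries. Without thinning these shares were 65.8%, 29.3% and 22.2% in Lyz2-cre and 63.8%, 25.5% and 23.2% in fl/fl mice. Its CPM was higher at 3 h than at 1 h in both genotypes, while its share of cells was higher at 3 h only among thinned fl/fl cells. Jdp2 was seen in 2.76%, 12.9% and 15.8% of thinned cells in Lyz2-cre and in 1.94%, 17.6% and 14.1% in fl/fl mice, or in 6.33%, 21.1% and 25.1% and in 4.61%, 29.6% and 25.7% of unthinned ones. In B cell-like cells, where Jdp2 was lowest, it was seen in 0% to 2.04% of unthinned cells of the 6 libraries. The median cell held 2876 to 3909 UMIs in that class and 3910 to 5209 in microglia-like cells. Jun remained in most cells: 99.5%, 89.7% and 80.4% of thinned cells in Lyz2-cre and 99.3%, 84.7% and 77.3% in fl/fl mice held a UMI of it. Between 120 and 612 microglia-like cells per library were shallower than 2000 UMIs and were left out.

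Cells with a Fosb UMI did not lack Jdp2. At 3 h Jdp2 was seen in 17.5% of thinned microglia-like cells with a Fosb UMI and in 15.4% of those without one in Lyz2-cre mice, and in 14.3% and 14.0% in fl/fl mice. At 1 h the shares were 15.6% and 12.3% in Lyz2-cre and 22.0% and 16.7% in fl/fl mice. Fos and Fosb were often seen in the same cells, since at 3 h 91.9% of cells with Fosb held Fos in Lyz2-cre mice, against 49.2% of those without Fosb, and in fl/fl mice 91.0% against 54.2%. Maff and Atf3 met in the same way: at 3 h Atf3 was seen in 81.4% of cells with Maff and 35.8% of those without in Lyz2-cre mice, and in 85.5% and 50.6% in fl/fl mice. These shares describe cells of single libraries and have no replicate.

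AP-1 levels spanned a wide range over the clusters of microglia-like cells at 3 h. Cluster 19, led by the stress cytokine gene Gdf15 and the chemokine gene Ccl3, had the highest Maff and high Atf3: Maff was at 252 CPM in Lyz2-cre and 311 CPM in fl/fl mice and Atf3 at 2864 and 2889 CPM. Cluster 18, led by the chaperone genes Hspa1a and Hspa1b, had the highest Jun, at 7285 CPM in Lyz2-cre and 6057 CPM in fl/fl mice, while its Jdp2 was 33.1 and 47.6 CPM and its Fosl2 25.5 and 47.3 CPM. Cluster 3, led by C1qa and Tmem119, had the highest Fosb, at 889 CPM in Lyz2-cre and 687 CPM in fl/fl mice, somewhat below the naive class levels of 982 and 1145 CPM. Clusters 5 and 16 stood lowest of the 7 clusters compared for Fos, Fosb, Fosl2, Jun, Junb, Atf3, Maff and Jdp2 in both genotypes. Fos was at 94.0 CPM in Lyz2-cre and 26.4 CPM in fl/fl cells of cluster 5, and at 84.8 and 46.4 CPM in cluster 16, whose median cell had 2113 and 2336 UMIs. Already at 1 h cluster 5 stood low, with Fosb at 63.0 and 37.1 CPM, while cluster 2, led by Rcan1, held Jdp2 at 219 CPM in Lyz2-cre and 222 CPM in fl/fl mice and Fosl2 at 126 and 137 CPM.

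**Figure D2:**
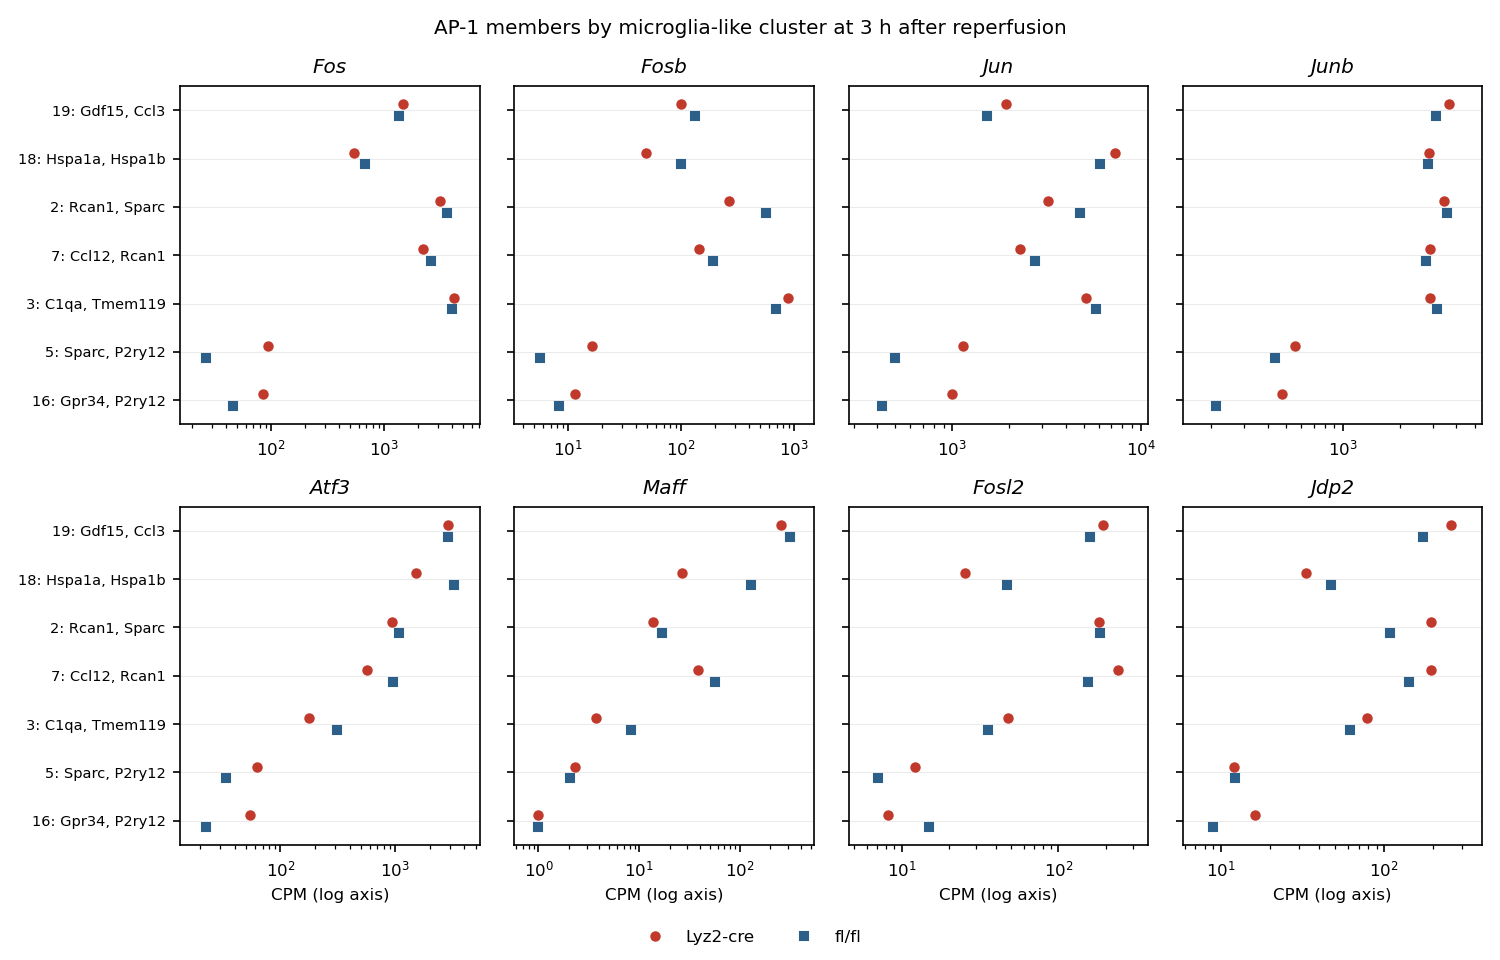
Level of 8 AP-1 members (CPM, log axis) in the microglia-like clusters with at least 100 cells in both 3 h libraries, 1 point per library for Lyz2-cre and fl/fl mice; a count of 0 is drawn at 1 CPM. Cluster 19 had Maff at 252 and 311 CPM, and cluster 16, with no Maff UMI, and cluster 5 were lowest for each of the 8.

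Between genotypes, 1 of 10 members passed in microglia-like cells, where 0.348% of all genes passed (0.317% lower). Maff was lower in Lyz2-cre than in fl/fl libraries at all 3 times, by -1.19 ± 0.11 on the log2 scale (2.27-fold lower, adjusted p = 0.00660, n = 3 libraries per genotype). At 3 h this was 38.9 CPM in the Lyz2-cre and 94.6 CPM in the fl/fl library. Atf3 was also lower in Lyz2-cre mice at each time, by -0.59 ± 0.11, and Batf by -0.84 ± 0.22, but these did not pass (adjusted p = 0.135 and 0.357). Fosb and Jun had differences of -0.03 ± 0.09 and -0.01 ± 0.10. Without the Lyz2-cre 1 h library no member passed, and without either 3 h library 6 passed. Cluster 19, the one with the highest Maff, made up 7.11% of the class at 3 h in Lyz2-cre mice and 14.3% in fl/fl mice; its part in the difference was not tested.

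Neutrophil-like cells showed another pattern: none of the 10 members passed as lower. At 1 h no member passed in edgeR's test, where 0.599% of 8179 genes passed, although 6 members had an unadjusted p under 0.05 and DESeq2 called 1. Without the Lyz2-cre 1 h library 4 passed, without either 3 h library 5 and without the fl/fl 1 h library 1. At 3 h against naive 7 of 10 passed, all higher, against 30.2% of all genes (18.4% higher), and 4 passed without either naive library. The median log2 fold change of the 10 was 1.37, with Maff at its lower bound, beside -0.07 over all genes. Neutrophil-like cells of naive brain and 1 h came mostly from clusters 6 and 11, and 91.0% and 90.8% of those at 3 h in Lyz2-cre and fl/fl mice from cluster 20.

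Neutrophil-like cells had Batf at 9.83, 10.7 and 99.6 CPM in Lyz2-cre mice (naive, 1 h, 3 h) and at 4.45, 33.4 and 95.8 CPM in fl/fl mice. Both 3 h libraries stood well above the rest, and Batf rose by 3.82 ± 0.46 (adjusted p = 0.000606). Fosl2, at 114, 134 and 621 CPM in Lyz2-cre and 123, 299 and 564 CPM in fl/fl mice, was likewise highest at 3 h, with a rise of 2.66 ± 0.28 (adjusted p = 0.000198). Jdp2 was at 86.5, 114 and 322 CPM in Lyz2-cre and at 63.8, 238 and 338 CPM in fl/fl mice, with no overlap between 3 h and naive and a rise of 2.41 ± 0.30 (adjusted p = 0.000539). Junb was at 795, 1015 and 2566 CPM in Lyz2-cre and at 1380, 2523 and 2868 CPM in fl/fl mice, so that its fl/fl 1 h library was close to the 3 h libraries. Junb rose by 1.73 ± 0.26 at 3 h (adjusted p = 0.00127), a call lost without either naive library.

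Maff had no UMI in neutrophil-like cells of either naive library, against 37 UMIs at 1 h and 385 UMIs at 3 h. At 3 h its level was 68.4 CPM in the Lyz2-cre and 56.1 CPM in the fl/fl library. Over both genotypes Maff was at least 55.6-fold higher at 3 h than in naive mice and at least 4.95-fold higher at 1 h, against a floor of 3 UMIs over both naive libraries (1.11 CPM). Atf3 rose by 1.01 ± 0.21 at 3 h (adjusted p = 0.00675), with 47.7, 49.95 and 84.9 CPM in Lyz2-cre and 131, 146 and 185 CPM in fl/fl mice; here the genotypes stood further apart than the times, and the call was lost in 5 settings: without either naive library, with library totals alone, in a model without genotype and with a stricter cell filter. Jund rose by 0.96 ± 0.26 (adjusted p = 0.0219), a call lost in 6 settings: library totals alone, without either naive library, without the Lyz2-cre 3 h library, with a stricter cell filter and with no doublet removal. Fosb was at 59.5, 49.6 and 63.4 CPM in the Lyz2-cre and at 163, 144 and 57.0 CPM in the fl/fl libraries, so the times overlapped, and its difference of -0.33 ± 0.34 at 3 h did not pass (adjusted p = 0.477). Between 3 h and 1 h 6 members passed, all higher, against 31.6% of all genes (17.9% higher), namely Fosl2, Junb, Atf3, Maff, Jdp2 and Batf. The calls of Atf3 and Junb were each lost in 7 settings. Among these were library totals alone, a model without genotype, and cells without microglia marker UMIs. Leaving out either naive or the Lyz2-cre 1 h library also lost both. That of Jdp2 was lost in 3, with library totals alone, without the Lyz2-cre 1 h library and with no doublet removal. Between genotypes no member passed in edgeR, where 0.0245% of genes did; 4 had an unadjusted p under 0.05, DESeq2 called 1, without either 3 h library 5 passed, and Atf3 was nearest, at -1.28 ± 0.17 (adjusted p = 0.0723).

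The share of microglial RNA in neutrophil-like cells differed between libraries. The summed level of 7 microglia markers in neutrophil-like cells, as a percent of that in microglia-like cells of the same library, was 2.35%, 3.34% and 2.62% in the Lyz2-cre naive, 1 h and 3 h libraries and 9.04%, 8.23% and 1.88% in the fl/fl libraries. The same share of the microglia-like Jun level is 201 CPM in the Lyz2-cre naive library, where 281 CPM of Jun were counted in neutrophil-like cells, and 887 CPM in the fl/fl naive library, where 1003 CPM were counted. Among neutrophil-like cells with no UMI of the 7 markers, Jun was at 180, 763 and 225 CPM in Lyz2-cre and at 181, 501 and 537 CPM in fl/fl mice at naive, 1 h and 3 h. In those cells 9 of 10 members were called at 3 h against naive, all higher, against 31.3% of 7011 genes tested: Jun at 1.31 ± 0.44 (adjusted p = 0.0474) and Fos at 0.71 ± 0.23 (adjusted p = 0.0460) joined the 7, while Fosb was at 0.03 ± 0.34 (adjusted p = 0.960). In all neutrophil-like cells Jun had been at -0.23 ± 0.50 (adjusted p = 0.751). This choice of cells was made after seeing the data.

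In monocyte-like cells Jdp2, Fosl2, Batf and Maff rose and Fosb and Jund fell at 3 h. At 1 h no member passed, where 0.245% of 9792 genes did; 5 had an unadjusted p under 0.05, DESeq2 called 2, 4 passed without the Lyz2-cre 1 h library and 2 without either 3 h library. At 3 h against naive 6 of 10 passed, 4 higher and 2 lower, against 19.9% of all genes (9.4% higher, 10.5% lower), 3 passed without the fl/fl naive or the Lyz2-cre 3 h library, and the members' median was -0.005 beside -0.04 over all genes. Jdp2 was at 13.9, 36.2 and 117 CPM in the Lyz2-cre naive, 1 h and 3 h libraries and at 12.5, 90.9 and 125 CPM in the fl/fl libraries. Its naive libraries were lowest and its 3 h libraries highest, and it rose 10.0-fold at 3 h (3.33 ± 0.34, adjusted p = 0.000565). Fosl2 and Batf rose by 1.54 ± 0.19 and 1.90 ± 0.26 (adjusted p = 0.00102 and 0.00173). Atf3 did not rise in this class: pooled over genotypes it was at 182, 109 and 101 CPM at naive, 1 h and 3 h. It was not called at either time, though its unadjusted p in edgeR was under 0.05 at both. At 3 h it was called in the cluster with Ccr2 among its leading genes alone.

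Fosb in monocyte-like cells was at 233, 165 and 62.3 CPM in Lyz2-cre and at 225, 63.5 and 73.3 CPM in fl/fl mice at naive, 1 h and 3 h. Both 3 h libraries were below both naive ones, and the 1 h libraries lay apart, the Lyz2-cre one nearer to naive and the fl/fl one nearer to 3 h. Fosb fell by 1.53 ± 0.35 at 3 h (adjusted p = 0.0189), a call lost without either naive library, without the Lyz2-cre 3 h library and with no filter on low counts. Jund fell by 0.71 ± 0.19 (adjusted p = 0.0292), and Maff rose by 1.96 ± 0.56 (adjusted p = 0.0375), with levels between 1.92 and 10.6 CPM over the 6 libraries. Maff lost its call in 9 settings, among them DESeq2, library totals alone, a stricter cell filter, either naive library or the Lyz2-cre 3 h library left out, and cells without microglia marker UMIs. Jund lost its call in 5, without the fl/fl naive or either 3 h library, in cells without those UMIs and in the Ace-led cluster alone. Fos, at 1716, 1819 and 1409 CPM in Lyz2-cre and 2281, 1293 and 1539 CPM in fl/fl mice, did not pass at 3 h (-0.23 ± 0.20, adjusted p = 0.462). Of the class, cluster 9, which has Ccr2 and Fn1 among its leading genes, held 80.8% and 78.0% at 3 h in Lyz2-cre and fl/fl mice, against 29.7% and 39.5% in naive mice, where cluster 15, led by Ace, held 61.2% and 49.2%. The microglia markers were at 1.53% to 6.06% of their microglial level, and in cells without them 4 members passed at 3 h, Fosl2, Jdp2 and Batf higher and Fosb lower, against 15.6% of 8688 genes. Between 3 h and 1 h Fosl2 and Jdp2 passed, both higher, against 17.8% of all genes (8.82% higher); 6 passed without the fl/fl 1 h library and 1 without the Lyz2-cre 3 h library. In edgeR none passed between genotypes, where 0% of genes did. No member had an unadjusted p under 0.05 and DESeq2 called 0. Even Lyz2 was not called in edgeR, at 26.1 to 86.8 CPM in the Lyz2-cre and 19460 to 23390 CPM in the fl/fl libraries. A member left uncalled here therefore does not show that the genotypes were alike.

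**Figure D3:**
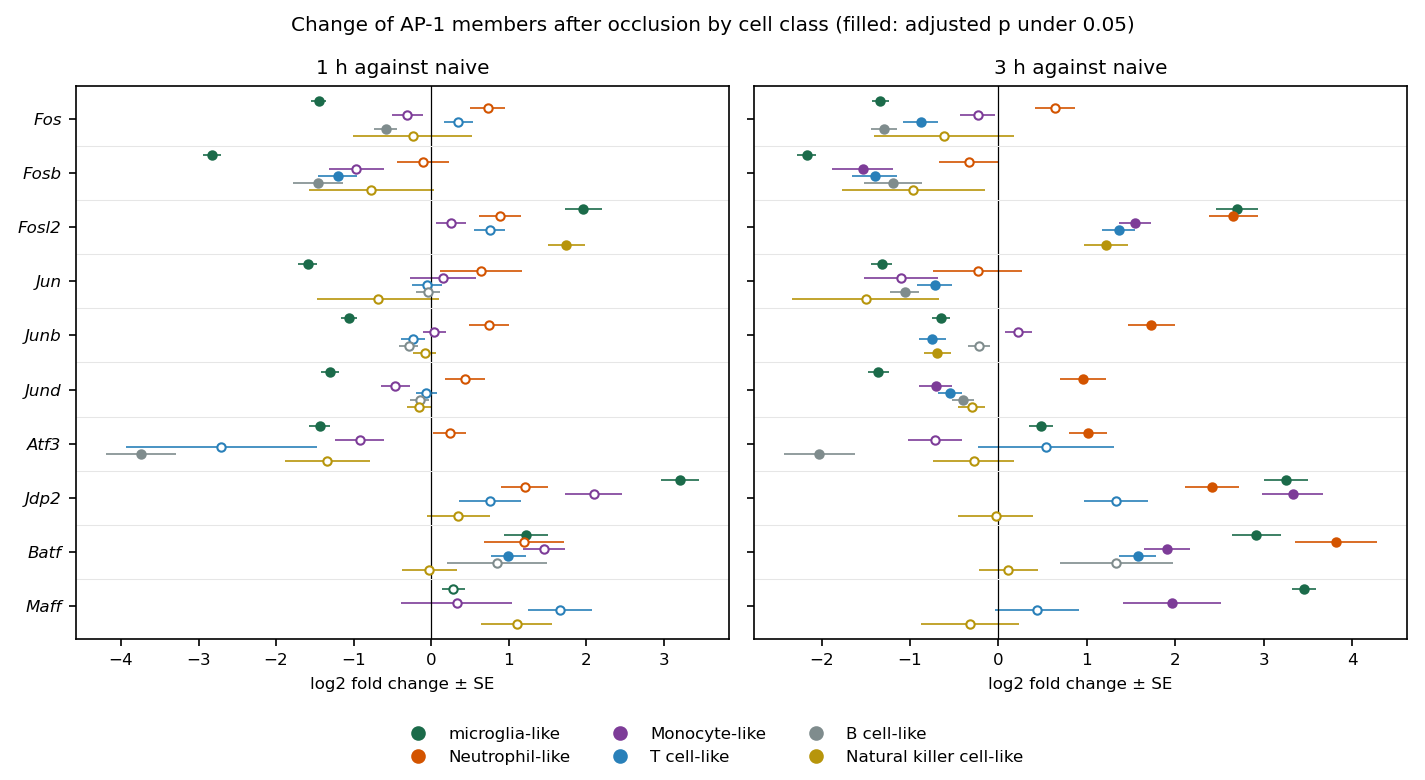
Log2 fold change of each AP-1 member (bars, SE) at 1 h and at 3 h against naive in each class of cells tested, filled where the adjusted p in edgeR's test was under 0.05; Maff in neutrophil-like cells, with no UMI in naive mice, and Fosl2, Jdp2 and Maff in B cell-like cells, too low to test, are not drawn. Fosb, Fos, Jun, Junb and Jund were lower in microglia-like cells at both times, while no member was called lower in neutrophil-like cells.

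The difference of the time effect between classes was itself tested, with library as a block over 12 sums. Against neutrophil-like cells the spread was drawn from all genes together (prior degrees of freedom infinite, 2 residual). Against monocyte-like cells it was drawn mostly so (61.6 prior, 2 residual). The small p-values here therefore owe little to the spread of a single gene between the 6 pools. At 1 h against naive the change in microglia-like cells minus that in neutrophil-like cells passed for 9 of 10 members, where 1.58% of 12779 genes did. Fosb (-2.70 ± 0.28, adjusted p = 7.26e-18), Fos (-2.16 ± 0.35), Jun (-2.11 ± 0.36), Junb, Jund and Atf3 changed to lower values in microglia-like cells, and Jdp2 (1.99 ± 0.29, adjusted p = 3.41e-09) and Fosl2 (1.09 ± 0.28) to higher ones. Maff also passed, with no fold given since it had no UMI in naive neutrophil-like cells. At 3 h 7 of 10 passed, against 17.1% of all genes: Fos, Fosb, Jun, Junb (-2.49 ± 0.36), Jund (-2.43 ± 0.33) and Batf were negative, and Maff again has no fold. The Batf call was lost without either naive or the Lyz2-cre 3 h library and with neutrophil-like cells free of microglia marker UMIs. That of Jun was lost without either naive or the fl/fl 3 h library and with RLE scaling factors. For Fosl2 (-0.09 ± 0.28) and Jdp2 (0.69 ± 0.28) the 3 h changes in both classes were not told apart (adjusted p = 0.921 and 0.0775). Without the Lyz2-cre naive library 1 member passed at 1 h and 4 at 3 h, and without the fl/fl naive library 5 passed at 1 h.

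Against monocyte-like cells 5 of 10 differences passed at 1 h, where 2.27% of 12945 genes did, and 6 at 3 h, where 15.3% did. At 1 h Fosl2 (1.67 ± 0.20) and Jdp2 (1.07 ± 0.29) changed to higher and Fos (-1.14 ± 0.19), Junb and Jund to lower values in microglia-like cells. At 3 h Fos, Junb and Jund were again lower, and Fosl2 (1.04 ± 0.19), Atf3 (1.07 ± 0.23) and Batf (0.85 ± 0.28) higher. The Batf call was lost without either naive or either 3 h library and with monocyte-like cells free of microglia marker UMIs. The 1 h Jdp2 call was lost with those cells too, and without either naive, the Lyz2-cre 1 h or the Lyz2-cre 3 h library. The Fosb difference of -1.79 ± 0.38 at 1 h did not pass (adjusted p = 0.107), nor did that of Jun (-1.65 ± 0.66, adjusted p = 0.619). Both passed whenever any 1 of the 6 libraries was left out and with monocyte-like cells free of microglia marker UMIs; without the Lyz2-cre 1 h library the Fosb difference was nearer to 0, as was that of Jun. Without the Lyz2-cre naive library 3 members passed at each time, and without the fl/fl 1 h library 8 passed at 1 h.

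Fosb also fell after occlusion in T cell-like and B cell-like cells, with fewer cells behind each value. In T cell-like cells Fosb was at 458, 191 and 104 CPM in the Lyz2-cre naive, 1 h and 3 h libraries and at 349, 131 and 166 CPM in the fl/fl libraries, all later libraries below both naive ones. It fell at 1 h (-1.21 ± 0.25, adjusted p = 0.0380) and at 3 h (-1.401 ± 0.25, adjusted p = 0.0137), and Batf rose by 1.00 ± 0.22 and 1.58 ± 0.21 (adjusted p = 0.0330 and 0.00110). These were the only 2 of 10 members called at 1 h, against 3.07% of 7883 genes (2.18% higher, 0.888% lower). At 3 h 2 rose, Fosl2 and Batf, and 5 fell, against 5.9% (3.75% higher, 2.14% lower). In B cell-like cells, where 7 members were tested, Fos, Fosb and Atf3 fell at 1 h, against 6.07% of all genes (2.74% lower), and these with Jun and Jund at 3 h, against 10.9% (5.68% lower). In natural killer cell-like cells Fosl2 rose at 1 h, by 1.75 ± 0.24 (adjusted p = 5.41e-08, 4.67% of all genes, 2.94% higher), and at 3 h Fosl2 rose and Junb fell, against 6.43% (3.76% higher, 2.67% lower). Between 3 h and 1 h Fos fell in T cell-like cells (2.83% of genes called, 1.45% lower), Fos and Jun fell and Atf3 rose in B cell-like cells (13% called, 6.35% higher, 6.61% lower), and Junb fell in natural killer cell-like cells (2.75% called, 1.39% lower). No member passed in edgeR between genotypes in T cell-like (0.0634% of genes), B cell-like (0.979%) or natural killer cell-like cells (0.168%), where 2, 1 and 3 members had an unadjusted p under 0.05; DESeq2 was not run there. The microglia markers stood at 0.958% to 7.999% of their microglial level in these 3 classes. In cells without them no member was called in B cell-like cells, where 5 could be tested, while in T cell-like cells Fosb and Junb fell and Fosl2 and Batf rose at 3 h (4.87% of 6696 genes called). At 1 h in those T cell-like cells Fosb fell, Fos (0.84 ± 0.20, adjusted p = 0.0323) and Jun (0.76 ± 0.19, adjusted p = 0.0349) rose, and Batf did not pass (adjusted p = 0.236), against 2.21% of genes called.

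Too few to test, at 23 to 52 cells per library, border-associated macrophage-like cells had the same direction as microglia-like cells for Fosb and Jdp2. Fosb was at 2213, 269 and 265 CPM in the Lyz2-cre naive, 1 h and 3 h libraries and at 2531, 164 and 217 CPM in the fl/fl libraries. Jdp2 was at 32.5, 233 and 319 CPM in Lyz2-cre and at 15.4, 298 and 473 CPM in fl/fl mice. Naive libraries were apart from the rest for both genes. Atf3 of this class, pooled over genotypes, was not above naive later: 592, 422 and 478 CPM at naive, 1 h and 3 h. Single libraries ranged from 164 to 888 CPM. The microglia markers were at 13.02% to 25.8% of their microglial level in this class. Conventional dendritic cell-like cells, 30 to 73 per library, had Fosb at 549, 199 and 121 CPM in Lyz2-cre and 439, 122 and 124 CPM in fl/fl mice, and Jdp2 at 17.0, 135 and 112 CPM and at 21.2, 132 and 97.7 CPM. Their Atf3, pooled over genotypes, was at 314.9, 172.5 and 233.8 CPM.

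**Figure D4:**
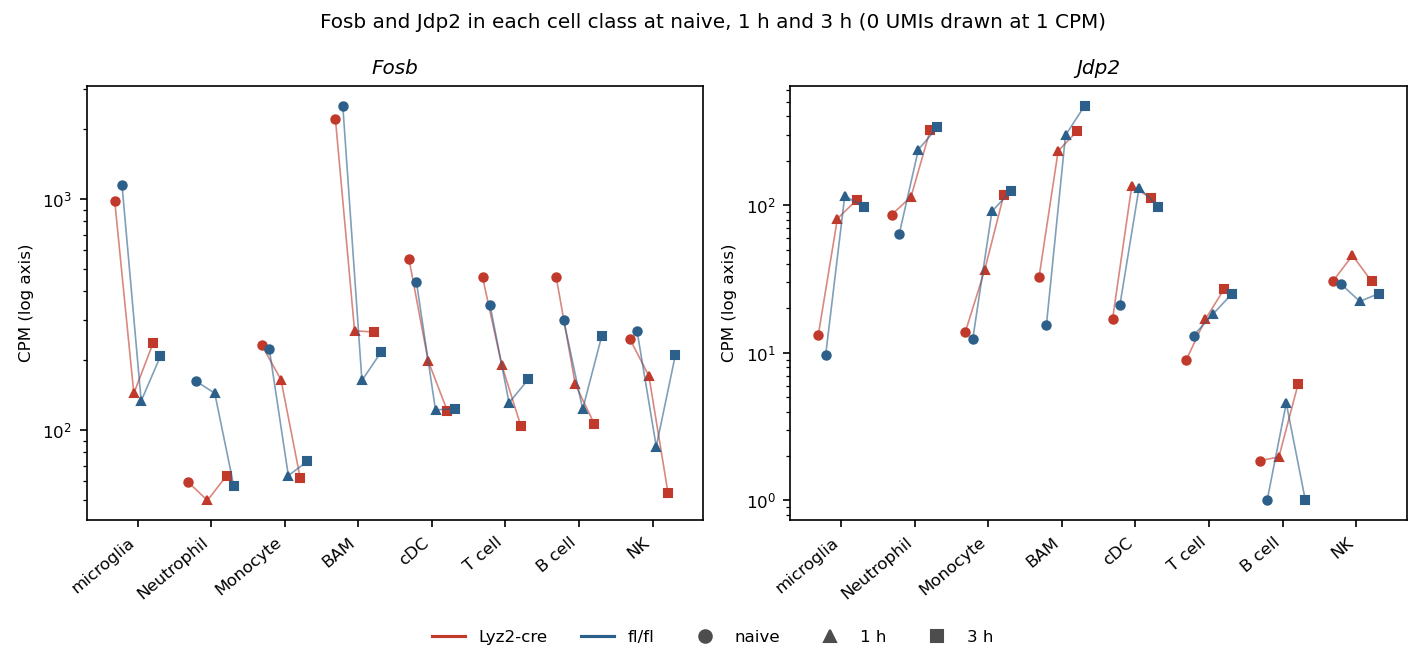
Fosb and Jdp2 (CPM, log axis) in each class of cells for Lyz2-cre and fl/fl mice at naive, 1 h and 3 h, 1 point per library, with 0 UMIs drawn at 1 CPM (BAM, border-associated macrophage-like; cDC, conventional dendritic cell-like; NK, natural killer cell-like). Fosb of microglia-like cells was at 982 and 1145 CPM in naive brain and at 144 and 134 CPM at 1 h, and Jdp2 of neutrophil-like cells was highest at 3 h, at 322 and 338 CPM.

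Ordered by the median over the 6 libraries, Fosb was highest in border-associated macrophage-like cells (267 CPM, range 164 to 2531), then in microglia-like (223 CPM, 134 to 1145), B cell-like (207 CPM, 106 to 460), natural killer cell-like (191 CPM, 53.4 to 268) and T cell-like cells (178 CPM, 104 to 458), and lowest in neutrophil-like cells (61.5 CPM, 49.6 to 163). Ranges of neighbours in that order overlapped. Jun differed more by class: microglia-like cells had 2748 to 9812 CPM (median 3468) and no library of the lymphoid, monocyte-like or neutrophil-like cells passed 1233 CPM. Border-associated macrophage-like cells shared the microglial range, with 1596 to 9919 CPM (median 1916), and dendritic cell-like cells reached 1506 CPM. Fosl2 was highest in neutrophil-like cells (217 CPM, 114 to 621), and Batf in T cell-like cells (74.1 CPM, 39.5 to 136), with overlap between neighbours in both orders. Over 36 library sums of 6 classes the genes most like Fosb were Rapgef1 (Pearson r = 0.761), Hnrnph1 and Arid1a, those most like Atf3 were Marcks (r = 0.903), Sirpa and Cd300c2, and those most like Jdp2 were Map2k3 (r = 0.891), Arrdc4 and Atp11a. The sums share libraries and classes, so r is a description.

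Among 23 AP-1 partners and related zipper factors tested in microglia-like cells, 5 were higher and 5 lower at 1 h than in naive mice, with a median of -0.14 (25% of all genes called), and 15 were higher and 1, Batf3, lower at 3 h, with a median of 0.39 (45.3% called). Nfil3, a repressor of the circadian system, was at 16.8 and 34.2 CPM at 1 h in Lyz2-cre and fl/fl mice, against 6.31 and 5.24 CPM in naive mice, and rose by 2.16 ± 0.33. Cebpb, which drives inflammatory genes of macrophages, rose by 1.93 ± 0.18 and Crem, a cAMP-responsive factor, by 1.43 ± 0.15 at 1 h. At 3 h Nfil3 was 3.52 ± 0.33 and Crem 2.84 ± 0.14 above naive. Fosl1, the Fos-type gene outside the 10, had 0 and 1 UMI in the naive Lyz2-cre and fl/fl libraries, then 1 and 2 UMIs at 1 h, and 60 and 200 UMIs at 3 h. Between genotypes, where 0.348% of all genes passed, Fosl1 was the 1 of 23 that did, lower in Lyz2-cre mice (adjusted p = 0.0444). At 3 h against 1 h, where 45.4% of all genes passed, 17 of 23 rose and none fell, among them Bach1, a partner of small Maf proteins, by 1.56 ± 0.13.

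Of 19 genes tested that are known as AP-1 targets, 6 were higher and 1, Dusp1, lower at 1 h, and 9 were higher and none lower at 3 h, with medians of 0.51 and 1.75, where 25% of all genes were called at 1 h (13.3% higher) and 45.3% at 3 h (23.5% higher). Ptgs2, which makes prostaglandin precursors, was at 30.1 and 54.1 CPM at 3 h in Lyz2-cre and fl/fl mice, against 0.676 and 0.944 CPM in naive mice (5.77 ± 0.16). Hmox1, a haem oxygenase, rose by 4.11 ± 0.17 and Plaur, the urokinase receptor gene, by 4.04 ± 0.34 at 3 h, and at 1 h Plaur had risen by 3.26 ± 0.34 and Il1b by 3.08 ± 0.50.

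Of 25 upstream kinases and promoter factors, 3 rose and 4 fell at 1 h and 8 rose and 10 fell at 3 h, where 25% and 45.3% of all genes were called. Map3k8, which feeds the ERK pathway, rose by 2.04 ± 0.27, Map2k3, a p38 activator, by 1.45 ± 0.10 and Mapkapk2, a p38 target, by 0.96 ± 0.12 at 3 h. The median of the list was -0.05 at 1 h and 0.18 at 3 h.

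Of 24 dissociation and early response genes outside AP-1, 6 were higher and 13 lower at 1 h than in naive mice (25% of all genes called), and 10 higher and 8 lower at 3 h (45.3%), with medians of -0.75 and -0.05. Among those that fell at 1 h were Egr1 (-1.92 ± 0.10), an immediate early zinc finger factor, and Zfp36 (-1.37 ± 0.09), an mRNA decay factor; these were picked after their values were seen. Hspa1b rose by 8.47 ± 0.14, Hspa1a by 5.14 ± 0.29 and the orphan receptor gene Nr4a1 by 2.72 ± 0.09 at 1 h. Between genotypes 9 of 24 were lower in Lyz2-cre mice, where 0.317% of all genes were, led by Hspa1b (-0.90 ± 0.09), Ccl3 (-0.78 ± 0.09) and Ccl4 (-0.76 ± 0.10). The part of cell isolation in the members' levels was not tested, and per the labels all libraries went through the same perfusion, homogenisation, gradient and sort.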

How the data were processed

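Living CD45+ brain cells were profiled with 10x 3′ single-cell RNA sequencing. The deposited values are counts of UMIs per gene and barcode; the submitters' processing notes name Cell Ranger 3.0.2 and the mouse build mm10. Barcodes under 300 genes or over 10% mitochondrial UMIs were left out, and doublets were removed by Scrublet score at 0.8% per 1000 barcodes, since its automatic cut marked 433. Clusters (scanpy 1.11.5; 2000 variable genes without the members and listed genes, 30 components, 15 neighbours, resolution 1) were named from fixed markers. Names rebuilt in this way may differ from the study's. UMIs were summed per library and class and tested with edgeR 4.0.16 (TMM, robust quasi-likelihood, genotype plus time, 2 residual degrees of freedom, Benjamini-Hochberg), where a class had at least 50 cells in each library; DESeq2 1.42.0 was an alternative. Intervals are exact at 95% and, with the floor of 3 UMIs, cover counting error only. Each library is 1 pool of 3 brains, and no genotype and time has a second pool. The p-values therefore measure how far the genotype difference varies between times, not the spread between pools of a group. The spread of each gene was drawn toward that of all genes. In B cell-like cells (prior degrees of freedom infinite) and natural killer cell-like cells (90.1) it came almost wholly from all genes. The design text writes 0 h where the titles write naive.

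Members, gene lists and tests were chosen with earlier results of these data known. Named genes of a list are drawn from the up to 3 called genes with the largest absolute log2 fold change in a comparison in microglia-like cells; Batf3, Dusp1, Egr1 and Zfp36 fall outside this rule and were named after their values were seen. Sequences come from RefSeq tables of GRCm38.p6 and gene positions from GENCODE; all 10 members matched by symbol.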

Additional observations from a re-analysis of the deposited data

Results flagged for a closer look

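The change after occlusion in microglia-like cells differed from that in neutrophil-like or monocyte-like cells for several members, in a test of the difference itself (log2 change in microglia-like minus that in the other class). At 1 h against neutrophil-like cells these differences were -2.16 for Fos, -2.70 for Fosb, 1.09 for Fosl2, -2.11 for Jun, -1.78 for Junb, -1.74 for Jund, -1.66 for Atf3 and 1.99 for Jdp2. At 3 h they were -2.10 for Fos, -1.92 for Fosb, -1.27 for Jun, -2.49 for Junb, -2.43 for Jund and -1.16 for Batf. Against monocyte-like cells the differences at 1 h were -1.14 for Fos, 1.67 for Fosl2, -1.11 for Junb, -0.85 for Jund and 1.07 for Jdp2, and at 3 h -1.22 for Fos, 1.04 for Fosl2, -0.98 for Junb, -0.77 for Jund, 1.07 for Atf3 and 0.85 for Batf. Many of these calls were lost in other settings. Among them were Batf at 3 h against both classes, Jun at 3 h against neutrophil-like cells and Jdp2 at 1 h against monocyte-like cells.

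In 4 cases the single Lyz2-cre and fl/fl libraries moved in opposite directions from their naive libraries, with more than 3 UMIs in each of the 4 libraries and Poisson 95% intervals that did not overlap within either genotype; the difference between genotypes was not tested. Jun in neutrophil-like cells at 1 h changed by 1.55 in Lyz2-cre and -0.74 in fl/fl mice, a difference of 2.29 on the log2 scale. In neutrophil-like cells without microglia marker UMIs this was not seen: Jun was higher at 1 h than in naive mice in both genotypes. Its change over both genotypes was 1.98 ± 0.44 in those cells and did not pass edgeR's test (adjusted p = 0.117). That choice of cells was made after seeing the data. In monocyte-like cells at 1 h Jun changed by 0.78 in Lyz2-cre and -0.79 in fl/fl mice, a difference of 1.57, and Fos by 0.08 and -0.82, a difference of 0.90. Junb in monocyte-like cells at 3 h changed by 0.16 in Lyz2-cre and -0.13 in fl/fl mice, a difference of 0.29.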

How the results depend on the processing

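No paired analysis was possible because the labels give no replicate numbers that could pair libraries; library was a block only where classes of the same libraries were compared. In microglia-like cells 1 member was called between genotypes, against 4 with DESeq2, 2 with no filter on low counts and 2 in cells without S100a8 or S100a9 UMIs, and 5 were called between 3 h and 1 h, against 3 without the genotype term. In neutrophil-like cells the 6 calls between 3 h and 1 h became 3 with library totals alone, and the 0 calls at 1 h and between genotypes each became 1 with DESeq2 and 2 with no filter. In monocyte-like cells the 0 calls at 1 h became 2 with DESeq2, 2 with no filter, 1 with a stricter cell filter and 2 in the Ace-led cluster alone, where the 2 calls between 3 h and 1 h became 0. Jun in neutrophil-like cells at 3 h turned to 1.31 in cells without microglia marker UMIs. The cause was not tested in any of these cases. The last 2 choices of cells were added after seeing the data. Leaving out 1 library at a time, with the lone library of a group assumed to vary like the others, gave 7 to 10 calls at 1 h, 8 to 10 at 3 h, 4 to 7 between 3 h and 1 h and 0 to 6 between genotypes in microglia-like cells; 0 to 5, 4 to 8, 3 to 7 and 0 to 5 in neutrophil-like cells; and 0 to 4, 3 to 8, 1 to 6 and 0 to 0 in monocyte-like cells. Differences from neutrophil-like cells passed for 1 to 9 members at 1 h and 4 to 8 at 3 h, and those from monocyte-like cells for 3 to 8 at both times. Of the values of single members with all libraries in, 1056 kept their side of the threshold under other processing, 30 lost the call and 22 gained one. Under the choices of cells added after seeing the data 170 kept their side, 11 lost the call, 10 gained one and 1 reversed. A change of direction was counted only for values called in either setting. Scaling by library totals alone moved the median log2 change of all genes to -0.13 and -0.11 at 1 h and 3 h in microglia-like cells and to -0.41 at 3 h in neutrophil-like cells.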
